A study of Mus musculus with 14 samples.

Results

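Sublow cells were compared with Low cells, 2 gates of a fluorescence sort of the mouse small intestinal epithelium, and the comparison ran over every miRNA entry of the deposited table. The members are 6 of the 14 libraries of the series, 3 labelled Sublow and 3 labelled Low, chosen by the group name in the column headers and not by any measured value. All mice were C57BL/6J and carried the Sox9eGFP transgene, in which green fluorescence follows the regulatory DNA of Sox9, a transcription factor of crypt cells. Low cells are the gate known to be rich in crypt stem cells, and Sublow cells are the gate known to be rich in transit-amplifying progenitors. The other 8 libraries (3 High, 3 Negative, 2 Non-sorted) entered the fit only as further groups. No treatment and no age is labelled. Nor is it stated that different mice gave the 3 libraries of a gate, so p-values here cover the spread of these libraries only, which may be technical. Each gate is a window of fluorescence and can hold several cell types.

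The crypt of the small intestine holds the stem cells, whose daughters divide several times as transit-amplifying cells before they become absorptive or secretory cells. A miRNA is a short RNA cut from either arm (5p or 3p) of a hairpin precursor. It pairs with messenger RNAs through its seed, bases 2 to 8 from the 5′ end, so miRNAs with one seed can share targets, and a start moved by 1 base gives another seed. In the gut, miR-192, miR-194 and miR-215 are abundant epithelial miRNAs whose genes are under hepatocyte nuclear factors. miR-375 and miR-7 are known from endocrine cells, and the let-7 family is known for opposing growth programmes.

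The miRNAs on which the comparison turns most are shown here with the seed in capitals, as RefSeq lists them for assembly GRCm38.p6. The first group holds the epithelial miRNAs, of which miR-215-5p and miR-192-5p have one seed, and the 3p arms of the 2 miR-194 hairpins have different last seed bases.
miR-215-5p: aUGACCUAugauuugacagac
miR-192-5p: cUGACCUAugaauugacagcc
miR-194-1-5p: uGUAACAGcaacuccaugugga
miR-194-2-5p: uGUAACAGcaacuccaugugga
miR-194-1-3p: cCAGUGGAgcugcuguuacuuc
miR-194-2-3p: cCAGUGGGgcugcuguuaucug
The second group holds the miR-7 family, in which miR-7a and miR-7b have one seed and the 3p arms tell the miR-7a hairpins apart.
miR-7a-1-5p: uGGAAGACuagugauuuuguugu
miR-7b-5p: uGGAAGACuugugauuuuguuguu
miR-7a-1-3p: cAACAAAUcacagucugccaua
miR-7a-2-3p: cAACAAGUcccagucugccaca
The third group holds the members of the miR-99b, let-7e and miR-125a cluster and both arms of let-7d, whose arm ratio has the largest difference of the 4 that passed the test.
miR-99b-5p: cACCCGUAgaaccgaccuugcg
let-7e-5p: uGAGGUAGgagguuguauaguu
miR-125a-5p: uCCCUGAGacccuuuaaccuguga
let-7d-5p: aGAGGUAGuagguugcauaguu
let-7d-3p: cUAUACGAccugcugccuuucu
The fourth group holds further miRNAs that were lower in Sublow cells, 2 of the miR-181 family with one seed, and miR-1224-5p and miR-92b-3p, with the largest falls among called annotated-start miRNAs that had a mean of at least 100 RPM in Low cells.
miR-181c-5p: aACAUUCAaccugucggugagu
miR-181d-5p: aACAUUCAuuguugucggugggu
miR-1224-5p: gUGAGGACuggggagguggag
miR-92b-3p: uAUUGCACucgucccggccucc

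Values are RPM over miRNA entries, so each library sums to 1000000 and a rise of one abundant miRNA lowers the share of all others. From the steps between low values, 1 RPM was estimated to stand for 4.04 to 16.3 reads in the 6 libraries, and the smallest listed values were 0.62 to 2.6 RPM, about 10 reads, so a 0 means fewer reads than that. By the column headers, Low 1, Sublow 1 and Sublow 3 came from lane L005 and Sublow 2 from lane L006. The headers of Low 2 and Low 3 read Combo and L000, and what was combined is not stated. Low 2 and Sublow 2 list the pluripotency miRNA miR-295-3p, at 395 and 811 RPM, and the other 4 libraries list it at 0. The same pair lists the lymphocyte miRNA miR-150-5p at 0, where Low 1, Low 3, Sublow 1 and Sublow 3 had 74.2, 39.2, 33.9 and 52.1 RPM. These libraries therefore stand apart within both groups, and without all 7 libraries of the series that list miR-295-3p the number of called entries below was 155 in place of 204. For Low 2 and Low 3, the Combo label and gate cannot be told apart, since no Sublow library carries that label. With lane as a term in the fit, the Low side of the comparison therefore rests in effect on Low 1. Whether a call lost under that term reflects lane or fewer libraries was not tested. The labelled tissue was visible in the table, since miR-192, miR-194 and miR-215 entries made up 20.7% ± 1.51 (SD, n = 3) of the Low libraries and 44.5% ± 1.02 (SD, n = 3) of the Sublow libraries. The table holds no mRNA, so Lgr5, Sox9 and other markers that define the gates could not be checked.

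Sublow cells had far more miR-215 and miR-194 and moderately more miR-22, miR-31, miR-378, miR-802 and miR-103 than Low cells, and less miR-375, miR-7, let-7e, miR-125a, miR-99b and miR-181. Of 588 tested entries, 204 (34.7%) differed at an adjusted p under 0.05 (limma with Benjamini-Hochberg adjustment), 61 higher (10.4%) and 143 lower (24.3%) in Sublow cells. The median log2 difference over all tested entries was −0.43. Library values did not overlap between the groups for 281 entries (47.8%), and 202 of the 204 called entries were among them. Lower calls outnumbered higher ones under RPM, but after median-ratio rescaling, which moved the median of all entries by 0.38, the split was 86 higher and 68 lower among 154 calls. Quantile normalization, with a shift of 0.34, gave 82 higher and 77 lower. A total without miR-192, miR-194 and miR-215, with a shift of 0.49, gave 96 higher and 53 lower. The direction of small differences is therefore given with its rescaled value where it changes.

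**Figure D1:**
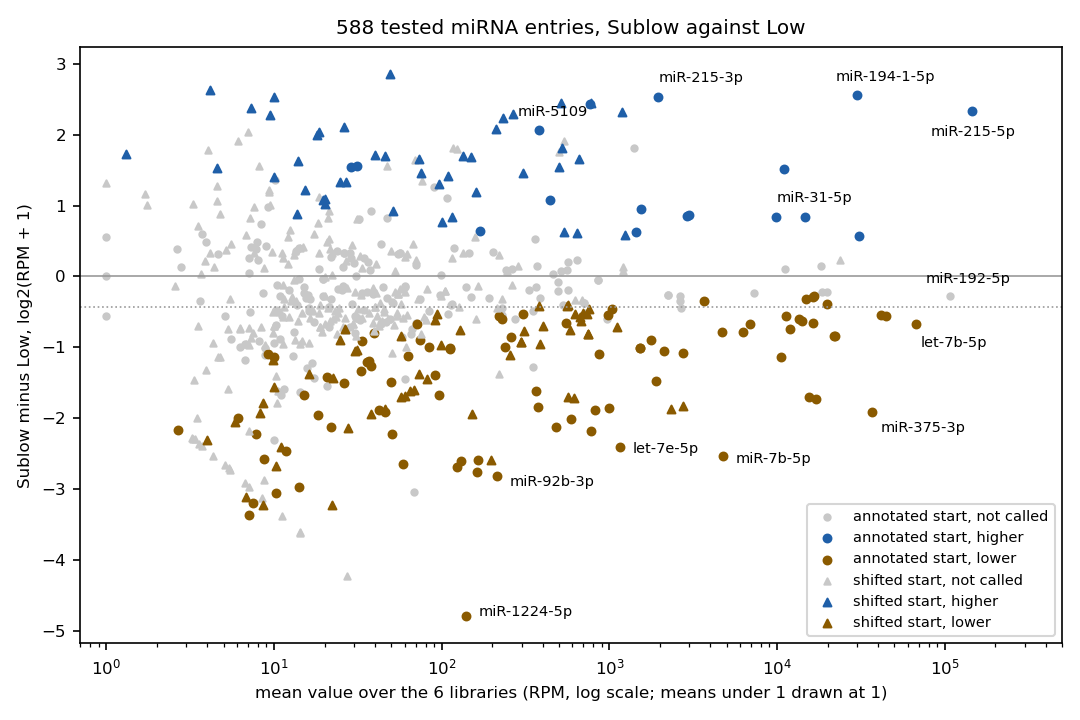
Difference of each of the 588 tested entries (Sublow minus Low, log2(RPM + 1), vertical axis) against its mean over the 6 libraries (RPM, log scale), with circles for annotated starts, triangles for shifted starts, blue for entries called higher and brown for entries called lower. The solid line is at 0 and the dotted line at the median of −0.43; miR-215-5p is the most abundant entry called higher and miR-1224-5p has the largest difference, −4.80.

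Calls were more frequent among abundant entries. Of 63 entries with a mean from 1000 RPM, 47 were called (13 higher, 34 lower). Of 125 entries with a mean between 100 and 1000 RPM, 67 were called, and of 400 entries below that, 90. Among the 275 entries at the annotated start, 17 were higher and 87 lower. The lists of miRNAs below hold only such entries, so these are the shares to set beside their counts. Since the lists were chosen with earlier results of these data known, their counts are descriptions and not tests. Among the 313 shifted entries, 44 were higher and 56 lower. In lane L005 alone, where Low 1 stands against Sublow 1 and Sublow 3, the 204 called entries had the same direction, but for the 202 without overlap that direction is fixed by the values already given. With lane as a term in the fit, 130 entries were called, 44 higher and 86 lower, and 121 of the 204 were among them with the same direction.

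The largest gains were in the Mir194-1/Mir215 cluster on chromosome 1 (185313319 to 185313692, plus strand, GRCm38.p6), where all 4 tested arms rose. In GENCODE vM21 the miR-215 arms lie in an exon, and the miR-194-1 arms in an intron, of the antisense transcript 2010103J01Rik, opposite to an intron of Iars2. miR-215-5p had 49283, 43681 and 52462 RPM in the Low libraries and 252329, 233630 and 244368 RPM in the Sublow libraries. The groups were far apart, at a 5.02-fold ratio of means, a log2 difference of 2.33 (SE 0.12, limma adjusted p = 9.2e-08). Its share of all miRNA reads went from 4.85% ± 0.445 to 24.3% ± 0.938 (SD, n = 3 each).

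miR-194-1-5p had 9731, 7178 and 8933 RPM in Low and 59428, 41427 and 51765 RPM in Sublow libraries, a log2 difference of 2.56 (SE 0.14, limma adjusted p = 1.1e-07). The lowest Sublow library, Sublow 2, still lay above every Low library. The passenger arms moved with the main ones. miR-215-3p had 579, 561 and 578 RPM in Low and 3764, 3214 and 3055 RPM in Sublow libraries, a log2 difference of 2.54. miR-194-1-3p had 306, 172 and 250 RPM in Low and 1333, 1473 and 1053 RPM in Sublow libraries, a log2 difference of 2.43.

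The sister cluster Mir194-2/Mir192 on chromosome 19 (6264643 to 6264932, plus strand) differed from this. Only 1 of its 4 tested arms was called, miR-194-2-5p, which had 6282, 5328 and 5165 RPM in Low and 19614, 12766 and 16397 RPM in Sublow libraries (log2 difference 1.52). Its sequence is identical to miR-194-1-5p over all 22 bases, so the deposited split of these reads between the hairpins cannot be checked. The 3p arms are told apart, since 18 of 22 bases are the same. miR-194-2-3p had 510, 399 and 593 RPM in Low and 360, 604 and 479 RPM in Sublow libraries, and these ranges overlap (log2 difference −0.07, limma adjusted p = 0.83).

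miR-192-5p, the most abundant entry of Low cells, had 102955, 139528 and 112233 RPM in Low and 86744, 112808 and 93075 RPM in Sublow libraries. These ranges overlap as well (log2 difference −0.27, SE 0.13, limma adjusted p = 0.13). With the replicate number as a block the adjusted p was 0.033, and after median-ratio rescaling the difference was 0.12. miR-192-3p differed by 0.01. Of the 8 tested entries of the miR-192, miR-194 and miR-215 list, 5 rose, none fell and the median was 1.93, beside −0.43 over all entries. Among the 275 annotated-start entries, 17 rose.

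**Figure D2:**
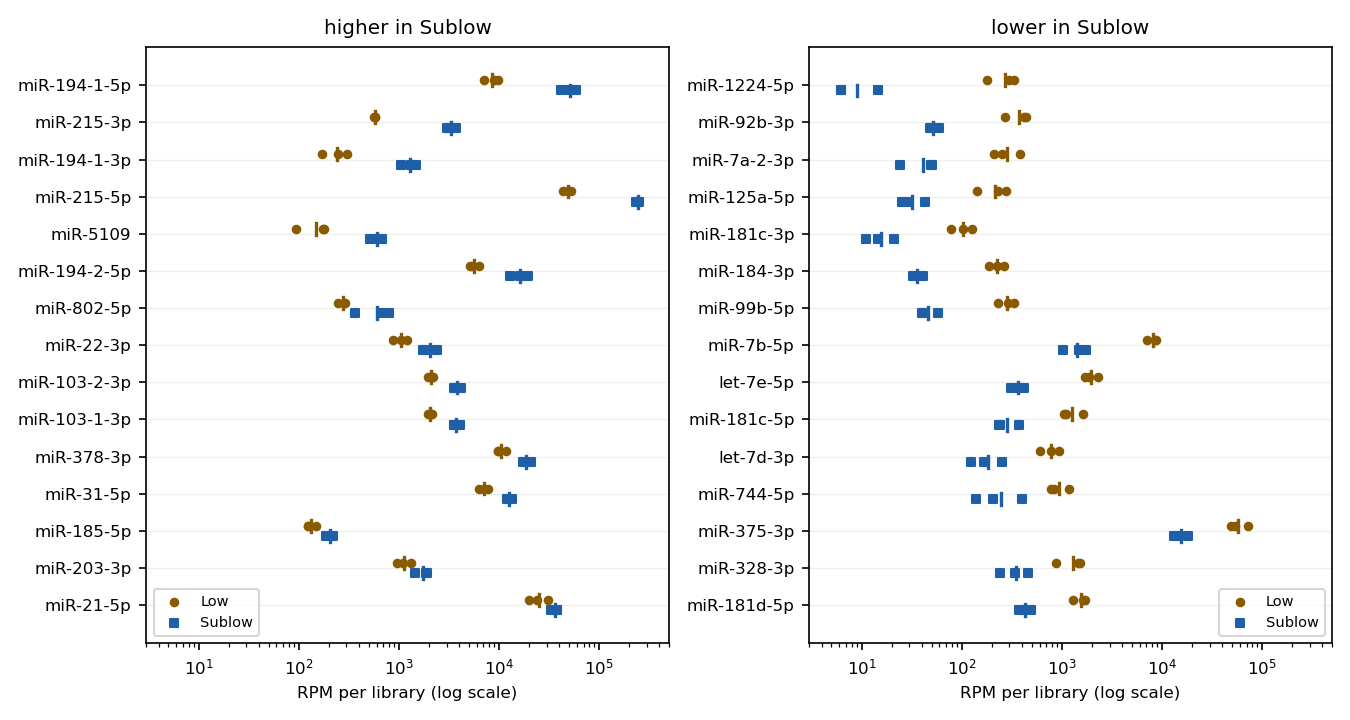
RPM per library (log scale) of the 15 miRNAs with the largest rise (left) and the 15 with the largest fall (right) among annotated-start entries called with a mean of at least 100 RPM in the higher group, circles for the 3 Low and squares for the 3 Sublow libraries, bars for means. No pair of groups overlaps in either panel, and the gap is widest for miR-1224-5p, with 181 to 331 RPM in Low and 6.26 to 14.7 RPM in Sublow libraries.

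A second set of higher miRNAs showed smaller gains. In the list of miRNAs linked to differentiation, 5 of 10 tested entries rose and 2 fell (median 0.74). Among the 275 annotated-start entries, 17 rose and 87 fell. miR-22-3p, which lies in exons of Mir22hg and Tlcd2 on chromosome 11, had 1060, 1213 and 885 RPM in Low and 1927, 2406 and 1761 RPM in Sublow libraries (log2 difference 0.95, limma adjusted p = 0.00042). miR-378-3p, from the gene of a metabolic coactivator, had 9723, 9901 and 11654 RPM in Low and 17652, 17421 and 21121 RPM in Sublow libraries (0.84). Neither miRNA overlapped between the groups.

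miR-802-5p, known from the small intestine and from liver, had 287, 246 and 292 RPM in Low and 794, 369 and 658 RPM in Sublow libraries (1.07), with Sublow 2 much closer to the Low values than the other 2. miR-210-3p, a miRNA induced by low oxygen, had 10.4, 15.1 and 17.1 RPM in Low and 34.9, 55.6 and 39.6 RPM in Sublow libraries (1.54). miR-203-3p, known to oppose proliferation in skin, had 1094, 1321 and 965 RPM in Low and 1857, 1461 and 1908 RPM in Sublow libraries (0.63, limma adjusted p = 0.040). That call was lost without Low 1 (adjusted p = 0.086), Low 3 (0.13), Sublow 1 (0.12) or Sublow 3 (0.11) and with a lane term (0.20), at the same direction. The list's falls were miR-148a-3p and miR-148a-5p, at −0.67 and −1.88; both were lost with a lane term (adjusted p 0.49 and 0.43) and after median-ratio rescaling (0.45 and 0.13). The first was also lost without Low 2 (0.12), Low 3 (0.089) or Sublow 1 (0.15), and the second without Low 2 (0.10), Low 3 (0.083), Sublow 1 (0.10) or Sublow 2 (0.076).

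Of 6 tested miRNAs linked to proliferation and regeneration, miR-31-5p and miR-21-5p rose, miR-222-3p fell and 3 were not called. Among the 275 annotated-start entries, 17 rose and 87 fell, so the share of falls in this list is not above that. miR-31-5p, which is known to promote growth of intestinal stem cells, had 7693, 6400 and 7168 RPM in Low and 13534, 12174 and 12386 RPM in Sublow libraries (log2 difference 0.84, limma adjusted p = 0.00075, 0.055 with a lane term). miR-21-5p, in an exon of Vmp1, had 19810, 30888 and 24211 RPM in Low and 33201, 37997 and 37996 RPM in Sublow libraries (0.56), with Low 2 close to Sublow 1. miR-222-3p had 335, 265 and 350 RPM in Low and 141, 131 and 206 RPM in Sublow libraries (−1.0, limma adjusted p = 0.013, 0.14 after median-ratio rescaling, 0.051 with a lane term and 0.086 without the libraries that list miR-295-3p). Its neighbour miR-221-3p did not pass the test (−0.19).

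The copies miR-103-1-3p and miR-103-2-3p, in introns of the pantothenate kinase genes Pank3 and Pank2, differed by 0.85 and 0.86. miR-103-2-3p had 1963, 2160 and 2182 RPM in Low and 3675, 3596 and 4197 RPM in Sublow libraries. miR-107-3p, in an intron of Pank1 and equal to miR-103 at 22 of 23 bases, had 548, 563 and 661 RPM in Low and 718, 645 and 715 RPM in Sublow libraries, which overlap (log2 difference 0.23, limma adjusted p = 0.31, and 0.0073 after median-ratio rescaling). miR-185-5p also rose (0.64, limma adjusted p = 0.0051, 0.087 with a lane term).

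miR-5109 rose by 2.06, from 175, 94.9 and 181 RPM in Low to 637, 675 and 516 RPM in Sublow libraries. Most of its level was not at the annotated start. Over all forms of this arm, 11.6% of the level was at the annotated start. The median over the 275 tested arms was 95.9%, with 98.9% for miR-215-5p and 52.4% for miR-203-3p. Of those 275 arms, 17 had less than 50% at the annotated start.

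Endocrine and sensory miRNAs were lower in Sublow cells. Of 15 tested members, with copies of the same mature miRNA taken separately, 13 fell and none rose (median −1.73). The list was chosen with earlier results of these data known, so this count is a description. Over the 275 annotated-start entries, 87 fell and 17 rose. After median-ratio rescaling, 10 of the 15 members fell. miR-375-3p, a regulator of hormone-secreting cells, had 71632, 53119 and 49474 RPM in Low and 14530, 18384 and 13326 RPM in Sublow libraries. The groups were well apart, at a log2 difference of −1.91 (SE 0.23, limma adjusted p = 7.7e-05), and all miR-375 forms together made up 6.62% ± 1.35 of Low and 1.77% ± 0.303 of Sublow libraries (SD, n = 3 each). In bulk libraries, fewer cells of a type and less RNA per cell cannot be told apart.

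miR-7b-5p had 8650, 8511 and 7162 RPM in Low and 1754, 1028 and 1484 RPM in Sublow libraries, a log2 difference of −2.54 (SE 0.33, limma adjusted p = 0.00015). miR-7a-1-5p, from an intron of Hnrnpk on chromosome 13, had 26665, 25669 and 25380 RPM in Low and 9304, 5551 and 9193 RPM in Sublow libraries (−1.73). The 3p arms separate the hairpins. miR-7a-2-3p, from chromosome 7 outside annotated genes, had 384, 254 and 208 RPM in Low and 49.2, 24.4 and 50.2 RPM in Sublow libraries (−2.77), whereas miR-7a-1-3p had 57.3, 46.1 and 50.9 RPM in Low and 47.5, 27.0 and 54.6 RPM in Sublow libraries, which overlap (−0.31, limma adjusted p = 0.50).

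miR-1224-5p, from an intron of Vwa5b2 on chromosome 16, had the largest difference. It had 331, 181 and 295 RPM in Low and 6.26, 14.7 and 6.30 RPM in Sublow libraries, a log2 difference of −4.80 (SE 0.45, limma adjusted p = 1.2e-05) and 29.6-fold lower by the means. miR-92b-3p had 417, 272 and 443 RPM in Low and 47.8, 59.1 and 49.1 RPM in Sublow libraries (−2.81). miR-184-3p had 263, 224 and 188 RPM in Low and 41.4, 34.0 and 32.4 RPM in Sublow libraries (−2.61). miR-153-3p, in an intron of Ptprn2, a gene of secretory granules, had 19.7, 20.1 and 16.7 RPM in Low and 3.05, 0 and 2.27 RPM in Sublow libraries. Its low level limits the precision, and its call was lost with a lane term (adjusted p = 0.071). miR-182-5p and miR-183-5p, from one sensory-organ cluster, fell less (−0.56 and −0.46), and neither passed after median-ratio rescaling (adjusted p 0.35 and 0.77), nor did miR-183-5p with a lane term (0.068). miR-139-5p did not pass (−0.22).

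The Mir99b/Mirlet7e/Mir125a cluster on chromosome 17 (17830194 to 17830879, plus strand, within Spaca6) fell together, at a median of −2.58. Of its 5 tested arms, 4 were called lower, beside 87 of 275 annotated-start entries. miR-99b-5p had 335, 288 and 228 RPM in Low and 57.9, 40.2 and 41.5 RPM in Sublow libraries (−2.58). let-7e-5p had 2274, 1873 and 1686 RPM in Low and 418, 370 and 310 RPM in Sublow libraries (−2.41). miR-125a-5p, known from blood stem cells, had 274, 144 and 230 RPM in Low and 42.5, 25.2 and 28.6 RPM in Sublow libraries (−2.70). In each of these the lowest Low library was more than 3 times the highest Sublow library. The arm that did not pass, miR-99b-3p, had 30.7, 21.3 and 42.4 RPM in Low and 11.9, 7.73 and 10.1 RPM in Sublow libraries.

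Of 8 tested miR-181 entries, with copies of one mature miRNA taken separately, 7 fell (median −1.43), beside 87 of 275 annotated-start entries. The Mir181d/Mir181c pair on chromosome 8 (84178716 to 84178945, minus strand, in an intron of Nanos3) fell in all 3 tested arms. miR-181c-5p had 1064, 1627 and 1112 RPM in Low and 234, 370 and 240 RPM in Sublow libraries (−2.17). miR-181d-5p had 1298, 1704 and 1640 RPM in Low and 373, 416 and 491 RPM in Sublow libraries (−1.86). miR-181a-1-5p and miR-181a-2-5p, copies of one mature miRNA, fell by 1.0 and 1.01 on the log2 scale, and the 3p arm miR-181a-1-3p fell by 1.95. miR-181b-1-5p fell by 0.65, a call lost with a lane term (adjusted p = 0.25), after median-ratio rescaling (−0.25, 0.34) and without Low 3 (0.052).

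Other falls among the 15 largest were let-7d-3p, miR-744-5p and miR-328-3p. miR-744-5p, in an intron of Map2k4, had 1173, 776 and 834 RPM in Low and 138, 402 and 205 RPM in Sublow libraries (−2.01). miR-328-3p had 1510, 885 and 1455 RPM in Low and 242, 462 and 338 RPM in Sublow libraries (−1.89). In both, Sublow 2 lay closest to the Low libraries and Low 2 near the bottom of its group. miR-132-3p and miR-212-3p, a pair of neuronal activity miRNAs in one cluster, both fell (−2.23 and −2.22), the second from 12.2, 12.4 and 15.5 RPM to 3.23, 2.43 and 0.99 RPM. The call of miR-212-3p was lost with a lane term (adjusted p = 0.11), without the libraries that list miR-295-3p (0.072) and after median-ratio rescaling (0.051).

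The largest families moved less. Of 13 tested let-7 entries, 9 fell (median −0.31), beside 87 of 275 annotated-start entries. But after median-ratio rescaling 2 let-7 entries fell, 1 rose and the median was 0.083. let-7b-5p, the most abundant of them, had 85493, 69034 and 93868 RPM in Low and 53300, 55886 and 46405 RPM in Sublow libraries (−0.67, and −0.27 with adjusted p = 0.15 after rescaling). let-7g-5p had 16136, 18047 and 17674 RPM in Low and 18627, 18793 and 19863 RPM in Sublow libraries, higher in every Sublow library but short of the test (0.14, limma adjusted p = 0.36, and 0.0021 after rescaling). let-7 entries made up 32.5% ± 1.17 of Low and 23.8% ± 1.48 of Sublow libraries (SD, n = 3 each). This share and the counts above take copies of one mature miRNA separately, such as let-7c-1-5p and let-7c-2-5p (means of 49423 and 53065 RPM in Low). Whether the same reads stand behind both copies is not stated. With each mature sequence counted once, the let-7 seed, which includes miR-98, summed to 231136 RPM in Low and 167395 RPM in Sublow libraries.

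Of 8 tested miR-200 family entries, an epithelial identity family, 3 fell (median −0.33), a share close to the 87 of 275 over annotated-start entries. After rescaling, 2 of the family rose and 1 fell (median 0.057). miR-141-3p fell under both scalings, from 2744, 3241 and 2436 RPM in Low to 986, 1129 and 896 RPM in Sublow libraries (−1.48). Of 17 tested entries of the miR-17-92 and paralogous clusters, a group known for driving proliferation, 4 fell and none rose (median −0.35). That share of falls is not above the 87 of 275 over annotated-start entries. After rescaling, 2 fell and 1 rose (median 0.047). The 4 falls under RPM were miR-92a-1-3p (−1.14), miR-92a-2-3p (−0.54), miR-25-3p (−0.79) and miR-25-5p (−1.34). The call of miR-92a-2-3p was lost after median-ratio rescaling (adjusted p = 0.67) and without Low 1 (0.13), Low 3 (0.097), Sublow 2 (0.082) or Sublow 3 (0.16). That of miR-25-5p was lost with a lane term (0.17), after median-ratio rescaling (0.14) and without any 1 library other than Low 2 (0.070 to 0.091). miR-17-5p differed by 0.20 and miR-20a-5p by 0.14, and neither passed. None of 6 tested miR-15/16 entries passed with limma (median −0.27), and 2 had an unadjusted p under 0.05.

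Of 10 tested miR-29 and miR-30 entries, 5 fell (median −0.40), beside 87 of 275 annotated-start entries. After rescaling, 1 of the 10 fell and 1 rose. miR-30d-5p, the most abundant, had 15691, 13050 and 15820 RPM in Low and 9046, 7580 and 10075 RPM in Sublow libraries (−0.74, limma adjusted p = 0.0013, and 0.092 after rescaling). Of 4 tested Hox-cluster entries 1 fell, a share not above the 87 of 275 over annotated-start entries. It was miR-10b-5p, which fell from 465, 615 and 565 RPM in Low to 191, 128 and 226 RPM in Sublow libraries (−1.62). miR-26a-2-5p, in an intron of Ctdsp2, had 30322, 27049 and 27302 RPM in Low and 15823, 14774 and 16843 RPM in Sublow libraries (−0.84).

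Sums over miRNAs with one seed give the part of a library's RPM that carries that seed, at annotated starts only. Each mature sequence was counted once, by its most abundant copy. Of 157 seeds, 62 (39.5%) differed, 11 higher and 51 lower (median −0.50), against 14 higher and 27 lower after median-ratio rescaling. Of the 34 seeds with at least 2 names, 2 were higher and 17 lower. The miR-192 and miR-215 seed went from 166714 ± 15584 to 340985 ± 4793 RPM (SD, n = 3 each), a log2 difference of 1.04, less than that of miR-215-5p alone because miR-192-5p carried most of the seed in Low cells. miR-215-5p made up 29.1% of this sum in Low and 71.4% in Sublow cells, and its sequence equals that of miR-192-5p at 18 of 21 bases. The miR-103 and miR-107 seed was higher by 0.74.

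The miR-7 seed fell from 34012 ± 1394 to 9438 ± 2483 RPM (SD, n = 3 each), by 1.89 on the log2 scale. The let-7 seed fell from 231136 ± 11195 to 167395 ± 9564 RPM (−0.47), but stood at −0.07 after median-ratio rescaling and at 0.05 under the total without miR-192, miR-194 and miR-215. let-7e-5p, the member with the largest fall, made up 0.841% of it in Low and 0.219% in Sublow cells. The miR-25 and miR-92 seed fell from 23007 to 11242 RPM (−1.03), and the miR-181 seed from 5687 to 2314 RPM (−1.29). Seeds of the miR-17 group (−0.21) and miR-15/16 (−0.25) did not pass. A sum holds only miRNAs with a matched sequence, so no sum is given for miR-30, whose most abundant member, miR-30d-5p, had none.

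**Figure D3:**
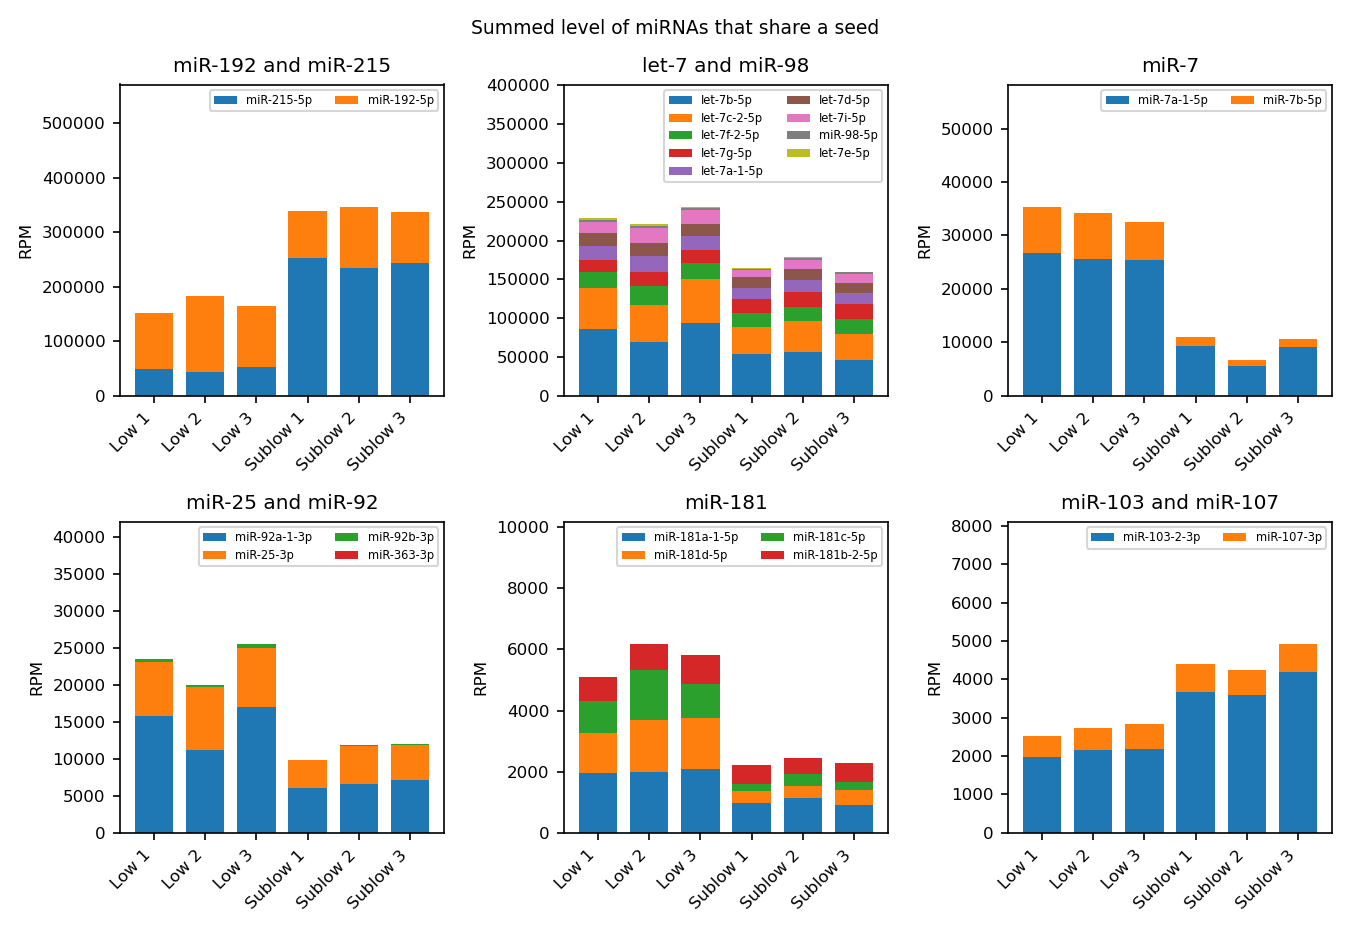
Summed RPM (vertical axis, from 0, with its own scale per panel) of miRNAs that share a seed, in each of the 3 Low and 3 Sublow libraries, stacked by member. The miR-192 and miR-215 sum is higher in every Sublow library through miR-215-5p, and the miR-7 sum is near 34012 RPM in Low and 9438 RPM in Sublow libraries.

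The ratio of the 5p to the 3p level tests where the arms of one hairpin moved apart. A ratio that does not pass does not show that the arms moved together. Of 65 hairpins with both arms tested, 4 ratios (6.15%) differed at an adjusted p under 0.05 (limma), and 16 at an unadjusted p under 0.05. For let-7d, the ratio was 17.3, 28.7 and 20.3 in Low and 106, 53.8 and 76.3 in Sublow libraries (log2 difference 1.80, SE 0.32, limma adjusted p = 0.0050). let-7d-3p fell from 932, 610 and 781 RPM to 125, 256 and 167 RPM (−2.12), whereas let-7d-5p fell from 16094, 17489 and 15853 RPM to 13242, 13749 and 12750 RPM (−0.31, and 0.083 after median-ratio rescaling). Apart from the pseudocount, a ratio within a hairpin does not depend on the scaling of the library.

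For miR-7a-1, the ratio fell from 466, 557 and 499 to 196, 206 and 168 (−1.42, limma adjusted p = 0.0050), since its 5p entry fell and its 3p arm did not pass. miR-7a-5p is one sequence that the miR-7a-1 and miR-7a-2 hairpins share, and the 5p to 3p ratio of miR-7a-2 differed the other way (1.07, limma adjusted p = 0.058). For miR-194-2, the ratio rose from 12.3, 13.4 and 8.71 to 54.5, 21.1 and 34.2 (1.59, limma adjusted p = 0.015), again with a 5p sequence that 2 hairpins share. For miR-181a-1 it differed by 0.95 (limma adjusted p = 0.0498). Leaving out Sublow 1 left 2 called ratios and leaving out Sublow 2 left 6, and the replicate block gave 7. With a lane term only the let-7d ratio passed. The miR-194-2 call was lost without Sublow 1 (adjusted p = 0.056) or Low 3 (0.056), and the miR-181a-1 call without each library other than Sublow 2 (0.076 to 0.16).

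**Figure D4:**
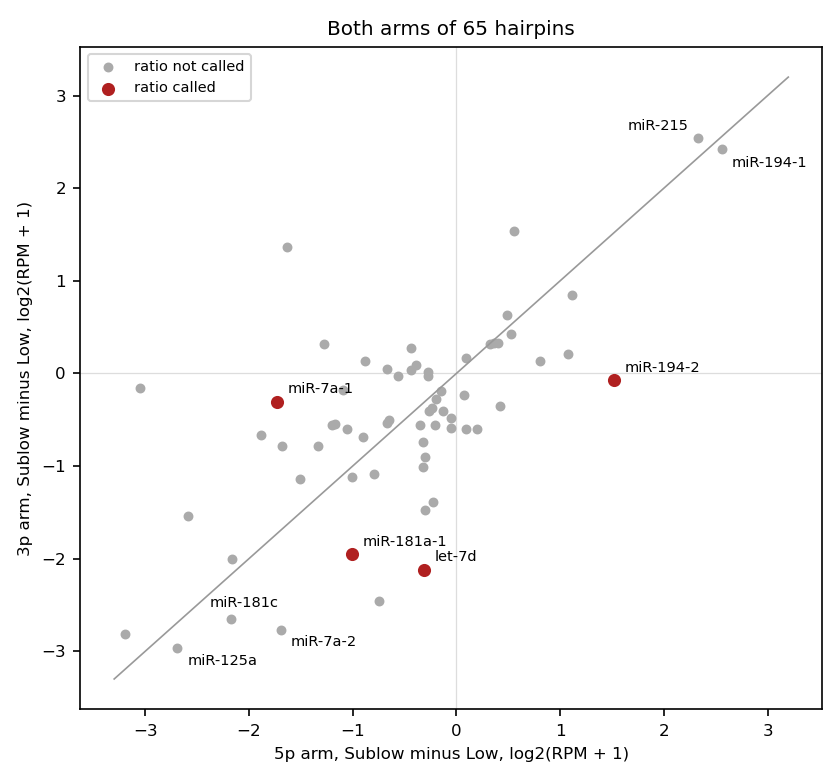
Difference of the 3p arm against that of the 5p arm (both Sublow minus Low, log2(RPM + 1)) for 65 hairpins, with the line of equal change and the 4 called ratios in red. miR-215 and miR-194-1 sit at the upper right with both arms above 2, and let-7d, miR-7a-1, miR-194-2 and miR-181a-1 lie off the line.

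The start of the miRNAs was tested in the same way, as the ratio of a shifted form to the annotated one. None of 297 ratios passed with limma (0%), 29 had an unadjusted p under 0.05, and the smallest adjusted p was 0.081. Leaving out Low 1 gave 3 calls and leaving out Low 3 gave 1, and the replicate block gave 2. Abundant shifted forms of miR-215-5p and miR-375-3p moved like their miRNA. miR-215-5p starting 1 base later had 432, 370 and 380 RPM in Low and 2093, 1906 and 1902 RPM in Sublow libraries (log2 difference 2.32). miR-375-3p starting 1 base earlier had 5015, 3829 and 3917 RPM in Low and 1048, 1426 and 1137 RPM in Sublow libraries (−1.82).

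The form of let-7e-5p starting 1 base earlier stood at 0.955%, 1.42% and 1.53% of the annotated form in Low and 3.83%, 2.94% and 4.87% in Sublow libraries, with no overlap (log2 difference of the ratio 1.62, limma adjusted p = 0.081, and 0.022 with the replicate block). Its own level was 21.7, 26.5 and 25.7 RPM in Low and 16, 10.9 and 15.1 RPM in Sublow libraries. The form of miR-192-5p starting 1 base later is abundant and reads another seed, here in capitals within the annotated sequence.
miR-192-5p, moved seed: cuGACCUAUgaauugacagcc
This form had 21521, 23821 and 20165 RPM in Low and 26208, 24858 and 26010 RPM in Sublow libraries, higher in all Sublow libraries but short of the test (limma adjusted p = 0.061), and stood at 20.9%, 17.1% and 18.0% of the annotated form in Low and 30.2%, 22.0% and 27.9% in Sublow libraries (ratio adjusted p = 0.23).

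Over the whole table, 93.4% to 93.8% of the level was at the annotated start in each of the 6 libraries. Forms starting 1 base earlier made up 0.911% to 1.09% in Low and 0.588% to 0.649% in Sublow libraries. Forms starting 4 bases earlier were above 0 for 39 entries in Low 2 and 61 in Low 3, the libraries labelled Combo, and for 5 to 15 in the other 4. Every tested entry listed at 0 in all Sublow libraries with a Low mean of at least 20 RPM was such a form (of let-7f-1-5p, miR-122-5p, miR-26a-1-5p and miR-26a-2-5p), and Low 1 lists all of them at 0 too.

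Along the genome, RefSeq places tested hairpins in 29 clusters of at least 2 with gaps of at most 10000 bases. In 2 clusters at least 1 arm was called higher and none lower, in 19 at least 1 lower and none higher, in none both, and in 8 none was called. Besides those above, both arms tested of Mir212/Mir132 on chromosome 11 and all 3 of Mir181a-1/Mir181b-1 on chromosome 1 fell. In Mir17/Mir18/Mir19a/Mir20a/Mir19b-1/Mir92-1 on chromosome 14, in the transcript Mir17hg, 2 of 9 arms fell, both from the miR-92a-1 hairpin. That share is not above the 87 of 275 over annotated-start entries.

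Across the sorted populations, mean levels in Sublow cells lay between those of Low and of Negative cells, the gate rich in differentiated cells, for miR-215-5p, miR-375-3p, let-7e-5p, miR-1224-5p and miR-181c-5p. miR-215-5p had mean RPM of 40381 in High, 48475 in Low, 243442 in Sublow and 340410 in Negative cells, and the ranges of High and Low overlap. miR-375-3p had 123490 in High, 58075 in Low, 15413 in Sublow and 837 in Negative cells, with no overlap between neighbours. let-7e-5p ran in the same order at 3034, 1945, 366 and 64.6 RPM. miR-1224-5p had 947, 269, 9.08 and 0.48 RPM, and 2 of 3 Negative libraries list it at 0. miR-181c-5p had 1185 in High and 1268 in Low, which overlap, then 281 in Sublow and 134 in Negative cells.

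miR-21-5p had its highest mean in Sublow cells, at 36398 RPM, beside 10895 in High, 24970 in Low and 26819 in Negative cells. Its lowest Sublow library (33201) was above the highest Negative one (30176), and Low and Negative overlap. miR-378-3p and miR-802-5p were at 18731 and 607 RPM in Sublow and at 19735 and 613 RPM in Negative cells, and these groups overlap. These levels are given as a description.

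**Figure D5:**
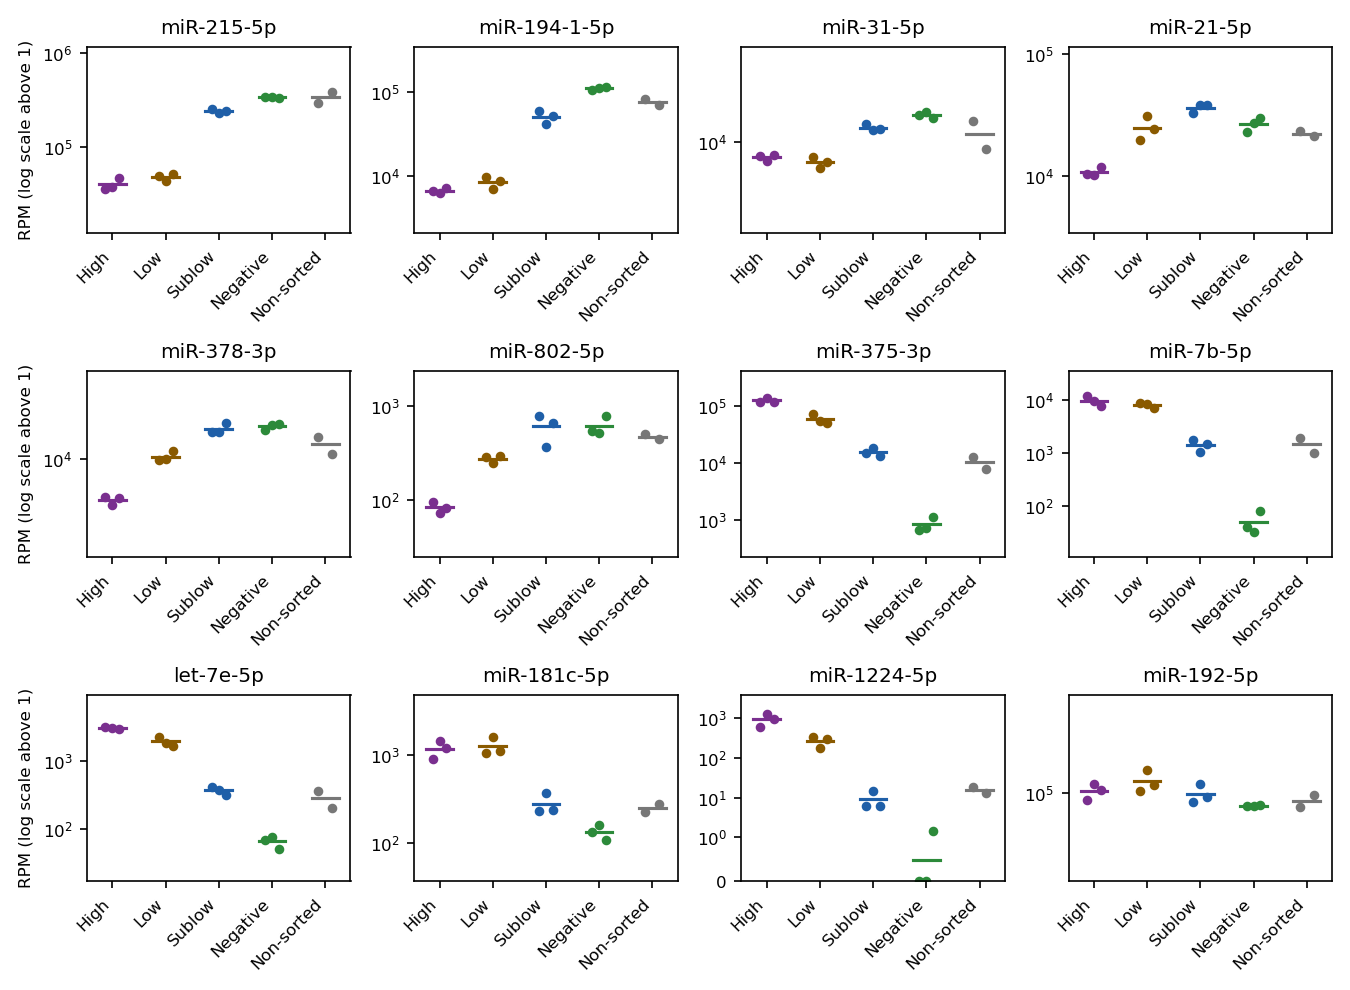
RPM per library (log scale above 1, with its own range per panel) of 12 miRNAs in the 4 sorted populations and the Non-sorted cells, points for libraries and bars for means. miR-215-5p and miR-194-1-5p are higher in Sublow than in Low cells and higher again in Negative cells, miR-375-3p, let-7e-5p and miR-1224-5p run the opposite way, and miR-192-5p overlaps between Low and Sublow.

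Markers of some other cell types were listed in both groups, at sums that differed between the lists. Some members of the lists are at 0 in all 6 libraries: miR-142-3p (blood), miR-451 and miR-144-3p (red cells), miR-126-3p (endothelium), miR-145-5p (smooth muscle) and miR-138-1-5p (neurons). Others of the same lists are present. miR-142-5p, from the hairpin of miR-142-3p, had 14 to 32.3 RPM in the 4 libraries that list it, miR-150-5p up to 74.2 RPM, and miR-155-5p 42.4 to 103 RPM in Low and 11.7 to 79.6 RPM in Sublow libraries. miR-126-5p, the other arm of the endothelial miR-126, had up to 12.6 RPM. Of 5 tested haematopoietic entries, 1 fell, miR-146a-5p, an immune response miRNA that epithelial cells also express, from 373, 663 and 706 RPM in Low to 135, 103 and 265 RPM in Sublow libraries (−1.85, limma adjusted p = 0.011, 0.21 with a lane term and 0.10 without the libraries that list miR-295-3p). The summed haematopoietic list ran from 606 to 863 RPM in Low and from 124 to 436 RPM in Sublow libraries. For this list and the neural one, 1 fall among 5 tested entries is a share below the 87 of 275 over annotated-start entries. The neural list summed to 179 to 224 RPM in Low and 135 to 188 RPM in Sublow libraries, and 1 of its 5 tested entries fell, miR-137-3p (−2.0), a call lost after median-ratio rescaling (adjusted p = 0.089) and without Low 1 (0.11), Low 3 (0.051), Sublow 2 (0.11) or Sublow 3 (0.060). The liver miRNA miR-122-5p ran from 13 to 31.7 RPM in Low and from 5.08 to 8.12 RPM in Sublow libraries (−1.67, limma adjusted p = 0.024), a call lost with a lane term (−0.93, 0.36), after median-ratio rescaling (0.085), and without Low 2 (0.074), Low 3 (0.087), Sublow 2 (0.068) or Sublow 3 (0.058). None of the tested entries of the other lists passed with limma, and none had an unadjusted p under 0.05 (1 endothelial, 1 erythroid, 3 mesenchymal and 8 pluripotency entries). The mesenchymal list summed to 56.9 to 139 RPM in Low and 77.9 to 117 RPM in Sublow libraries, the erythroid list to 11.9 to 32.4 and 9.72 to 29.4 RPM, and the endothelial list to 0 to 12.6 and 0.98 to 5.96 RPM. The pluripotency list summed to 0 to 1061 RPM in Low and 0 to 2140 RPM in Sublow libraries, and no entry of the pancreatic acinar list is listed. The part of these miRNAs' sources in the other results was not tested.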

How the data were processed

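Small RNA libraries were made with a TriLink CleanTag kit, per the labels' protocols. The authors deposited one table of RPM values (reads per 1000000 reads over miRNA entries, per the file headers and column totals) for 2030 entries in 14 libraries; the submitters' processing notes name build mm9. For the aligner and the counting, the sources used here state nothing. Suffixed entries were read as shifted starts.

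Depth was estimated from steps between low values, of which 65.0% to 81.5% came out whole within 0.1 read in the 6 libraries, too few for a count test. Entries with at least 10 RPM in at least 3 libraries were analysed as log2(RPM + 1), a scale that understates changes of low entries. One limma 3.58.1 fit in R 4.3.3 with 5 group means over 14 libraries (trended empirical Bayes, two-sided, Benjamini-Hochberg over all 588 entries, threshold 0.05) gave Sublow minus Low. Ratios of arms and starts and seed sums were fitted likewise, ratios without a trend. The procedure was tested on simulated data. Python 3.11.15 with matplotlib 3.10.9 made the figures.

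Sequences and positions came from RefSeq (GRCm38.p6), matched by name for 234 of 275 annotated-start entries, and overlapping genes from GENCODE vM21. Named by rule were the 15 annotated-start entries with the largest change per direction. Each was called and not overlapping, with a mean of at least 100 RPM in the higher group. The rule also took 5 shifted ones per direction, the 10 most abundant and called list members. Some others were chosen after their values were seen. The text above gives only some of the entries that the rule took, and leaves out most of the shifted ones. Members, lists and tests were chosen with earlier results of these data known. Same-numbered Low and Sublow libraries deviated together (r = 0.387, 0.713 and 0.628 over entries, each over 0.1). For differently numbered ones, r ran from −0.568 to 0.233. Same-numbered libraries also share an identifier in the column headers, so the replicate block took the numbers to pair the libraries. The main fit did not pair them. What the identifier marks is not stated. Alternatives covered the pseudocount, filter, scaling, samples, lane, replicate block, single libraries left out, and libraries listing miR-295-3p, the last chosen after seeing the data.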

Additional observations from a re-analysis of the deposited data

How the results depend on the processing

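Of 117 single results (miRNAs, ratios and seed sums named by rule), 57 kept their direction and their side of the threshold under every setting tried for them. The number of called entries, 204, fell to 130 with a lane term and to 115 of 294 when all start positions of an arm were summed, and leaving out 1 library gave 163 (Sublow 1) to 205 (Low 1). The seed sums, 62 called, gave 41 after median-ratio rescaling and 40 under the total without miR-192, miR-194 and miR-215, and 53 to 63 with 1 library left out. The arm ratios, 4 called, gave 19 with a pseudocount of 10, 2 with the 6 libraries alone, 1 with a lane term, 9 without the libraries that list miR-295-3p, 10 with a term for them, and 2 to 6 with 1 library left out. The start ratios, 0 called, gave 34 with a pseudocount of 10, 64 with no filter, 1 with a filter at 100, 1 with a lane term, 1 with a term for the miR-295-3p libraries, and 0 to 3 with 1 library left out.

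With the replicate block, which pairs same-numbered libraries, 220 entries were called and 203 of the 204 were among them. The block gave 7 arm ratios and 2 start ratios, brought miR-192-5p and the start ratio of let-7e-5p past the threshold as given above, and changed no other call of a miRNA named above.

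Directions turned under the 3 scalings, which move the median of all entries up, and for miR-194-2-3p with a library left out. Under median-ratio rescaling these were miR-192-5p at 0.12, let-7a-1-5p 0.12, let-7a-2-5p 0.11, let-7d-5p 0.083, miR-200c-3p 0.0039, miR-30a-5p 0.044, miR-194-2-3p 0.32, miR-7a-1-3p 0.082 and the miR-200b/c and miR-429 seed at 0.049. Quantile normalization turned let-7a-1-5p (0.062), let-7a-2-5p (0.052), let-7d-5p (0.033), miR-194-2-3p (0.065) and miR-7a-1-3p (0.13). The total without miR-192, miR-194 and miR-215 turned miR-192-5p (0.24), miR-183-5p (0.052), let-7a-1-5p (0.24), let-7a-2-5p (0.23), let-7d-5p (0.20), miR-200c-3p (0.12), miR-30a-5p (0.16), miR-194-2-3p (0.44), miR-7a-1-3p (0.20), and the seeds of miR-200b/c and miR-429 (0.17), miR-130/301 (0.013), let-7 (0.051) and miR-26 (0.0064). With 1 library left out, miR-194-2-3p ranged from −0.25 to 0.12 (0.12 without Sublow 1, 0.06 without Low 3).

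The cause of the other shifts was not tested. With 3 libraries a gate, values near 10 reads limit what can be read from rare entries.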
